A study of Mus musculus with 68 samples.

Results

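A set of 151 genes was strongly expressed in mouse cumulus cells and nearly absent from 1-cell embryos made by transferring the nuclei of such cells into enucleated oocytes. The genes, called cumulus-restricted genes here, were chosen on transcripts per 1000000 (TPM), a relative RNA level per transcript length. Each of them had a mean of at least 50 TPM over the cumulus cell (CC) libraries and a mean under 1 TPM over the libraries of somatic cell nuclear transfer (SCNT) embryos at 6 and at 14 h post activation (hpa). They made up 151 of the 24421 named genes in the tables, of the 2159 genes at 50 TPM or more in CCs and of the 14168 genes under 1 TPM at both 1-cell time points. Their levels in CCs, at 6 hpa and at 14 hpa were used to choose them and are given as a description only.

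The libraries were made by Smart-seq2, which copies polyadenylated RNA, with 10 blastomeres per reaction by the protocol. CCs, untreated and used as nuclear donors, had 3 libraries. Untreated SCNT embryos made with CCs and BDF1 oocytes had 6 libraries each at 6 hpa, 14 hpa, the early 2-cell (E2C), late 2-cell (L2C), 8-cell (8C) and morula stages and, from the blastocyst, of its ICM (the inner cell mass) and its TE (the trophectoderm), and 5 libraries at the 4-cell (4C) stage. The ICM and TE of fertilized blastocysts had 2 libraries each per treatment, after injection of the zygote with a control morpholino or with one against Max or Mcrs1. The control libraries are labelled control and untreated, and the protocol names a random-sequence morpholino. The fertilized embryos came from C57BL/6j parents and from a separate experiment, so the kind of embryo, the mouse strain and the experiment cannot be told apart in any comparison of SCNT with fertilized blastocysts. The ICM and TE were separated by hand, and the study describes its SCNT samples as biologically independent. The labels do not say whether libraries of a group came from separate rounds of nuclear transfer, and the p-values below measure the spread between these libraries.

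Cumulus cells surround the oocyte, exchange small molecules with it through gap junctions and, after the ovulatory signal, secrete a matrix rich in hyaluronan that makes the cumulus mass expand. After nuclear transfer the donor genome falls largely silent in the oocyte cytoplasm and is transcribed again when the embryonic genome is activated around the 2-cell stage. A gene of the donor cell can therefore appear again because the embryo uses it, as an epithelial gene of the TE is used, or because its donor state was not fully reset, which is called somatic memory. RNA levels by stage and by lineage, set beside those of fertilized blastocysts, describe which genes came back and when, and cannot by themselves tell these 2 routes apart.

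Over all 68 libraries, coverage and FPKM gave 1.00 to 5.17 aligned gigabases, with 6177 to 11771 genes at 1 TPM or more. The CC libraries had 13 of 15 cumulus cell markers at a mean of 1 TPM or more, with a summed level of 5404 to 5984 TPM. Amh was at 0 in all of them, and the marker list summed to 24.7 to 39.1 TPM at 6 hpa. Leukocyte markers summed to 146 to 239 TPM in CCs, with 6 of 9 at 1 TPM or more, most of it from Cd52, a cumulus-restricted gene here. The oocyte markers summed to at most 2.25 TPM in CCs and to 4196 to 8172 TPM at 6 hpa. E2C replicates 1 to 3 stood apart from replicates 4 to 6. The cumulus-restricted genes summed to 389 to 468 TPM in the first and to 76.8 to 93.6 TPM in the second, at 3.44 to 4.49 and 3.17 to 3.26 gigabases. ICM replicates 1 to 3 of SCNT blastocysts detected 6177 to 6771 genes at 1 TPM or more against 9011 to 10032 in replicates 4 to 6. The labels name no batch that separates these replicates. In pools of 10 cells, fewer cells that express a gene and less RNA in each cannot be told apart, and a low value of 1 gene in 1 library can be a missed gene.

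In CCs the 151 genes had means from 50.3 to 800 TPM, with a median of 78.5 TPM. The 6 highest were Inha, the alpha subunit of inhibin (800 TPM), Sfrp4, a secreted inhibitor of Wnt signals (557 TPM), Emp3, a membrane protein (428 TPM), Hs3st1, a heparan sulfate sulfotransferase (370 TPM), Nrn1, neuritin (353 TPM), and Cd81, a tetraspanin (352 TPM). Together the 151 genes summed to 14971, 18308 and 18529 TPM in the 3 CC libraries, to 42.6 to 66.9 TPM at 6 hpa and to 15.3 to 99.7 TPM at 14 hpa. Single 1-cell libraries held 3 to 39 of the genes at 1 TPM or more. Just inside the CC threshold were Camp at 50.3, Rhox8 at 50.4 and F3 at 50.8 TPM, and just outside were Bpnt1 at 49.5, Mier1 at 48.3 and Rras at 47.8 TPM. At 6 hpa Pcsk5 (0.989 TPM), Pam (0.954 TPM) and Nagk (0.931 TPM) were just inside, and Nipsnap3b (1.01 TPM), Ltbp1 (1.02 TPM) and Ado (1.04 TPM, rounded from 1.035) just outside. At 14 hpa Fst (0.983 TPM), Krt18 (0.975 TPM) and Pgm2 (0.956 TPM) were just inside, and Mrps34 (1.02 TPM), Dap (1.04 TPM) and Tmem176b (1.07 TPM) just outside. On TPM rescaled to the reference genes of each library, 128 genes met the thresholds, of which 107 were among the 151.

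Most of the cumulus-restricted genes were measured again later. A gene was counted as returned at a stage when its mean was at least 1 TPM and over 50% of the libraries had at least 1 TPM. In this sense 111 of 151 genes (73.5%) returned at 1 or more SCNT stages, against 23.6% of the 14168 genes that were under 1 TPM at both 1-cell time points. At E2C 32 genes had returned (21.2%, against 2.87% of the 14168), at L2C 85 (56.3%, 12.5%), at 4C 74 (49%, 11.4%), at 8C 79 (52.3%, 12%) and at the morula stage 88 (58.3%, 14.8%). In SCNT blastocysts 72 had returned in the ICM (47.7%, 8.55%) and 83 in the TE (55%, 12.2%). The larger group contains 11416 genes that were also under 1 TPM in CCs. The 2601 genes with a CC mean from 1 to under 50 TPM lay closer, with 37.1% returned at L2C, 46.9% at the morula stage and 43% in the TE.

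**Figure D1:**
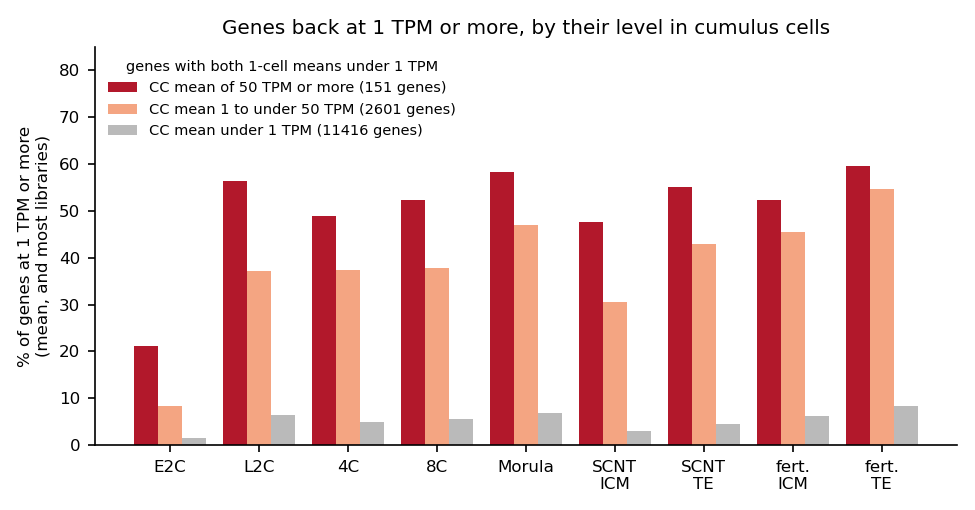
Share of genes returned at each stage (vertical axis, % of genes with a mean of at least 1 TPM and at least 1 TPM in most libraries) for genes with both 1-cell means under 1 TPM, split by their CC mean, with 1 bar per class. At L2C the bars stand at 56.3%, 37.1% and 6.38% for the 151, 2601 and 11416 genes, and in every group plotted the bar of the cumulus-restricted genes is the highest.

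The first return was at E2C for 32 genes, at L2C for 57, at 4C for 5, at 8C for 8, at the morula stage for 6 and in the blastocyst for 3, and 40 genes did not return. The E2C count depended on the libraries. With replicates 1 to 3 alone it was 72, with replicates 4 to 6 alone it was 19, and single E2C libraries had 69 to 82 and 25 to 30 of the genes at 1 TPM or more. The cumulus markers outside the set, mostly Gja1, moved with it, at 39.5 to 50.8 TPM in replicates 1 to 3 and 7.27 to 11.1 TPM in replicates 4 to 6, while Inha, the highest gene in CCs, was at 0 in all 6 E2C libraries. The part of these markers' source in the E2C values was not tested. In the ICM the count was 55 with replicates 1 to 3 alone and 94 with replicates 4 to 6 alone.

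**Figure D2:**
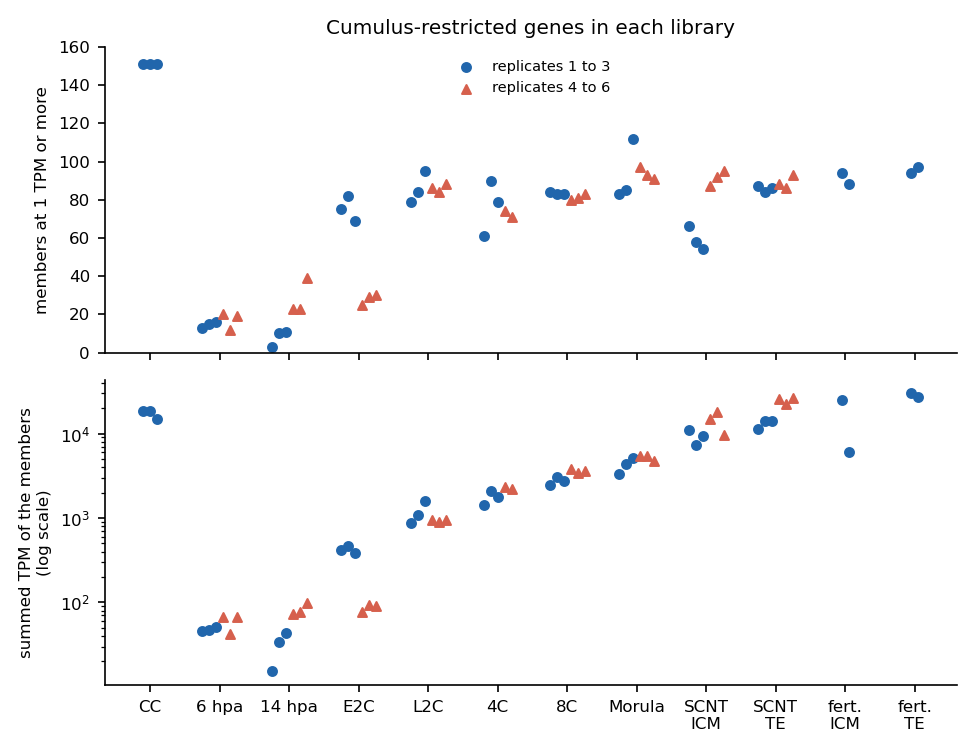
Number of the 151 cumulus-restricted genes at 1 TPM or more (upper panel) and their summed TPM on a log scale (lower panel) in each library, with circles for replicates 1 to 3 and triangles for replicates 4 to 6. The E2C libraries fall into 2 levels, 69 to 82 and 25 to 30 genes, and the summed TPM climbs from 42.6 to 66.9 at 6 hpa to 11436 to 26419 in the SCNT TE.

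The summed TPM of the 151 genes was on average 256 at E2C, 1058 at L2C, 1965 at 4C, 3186 at 8C, 4748 at the morula stage, 11694 in the ICM and 19041 in the TE, against 17269 in CCs. As a share of the TPM of reference genes, which took 30.4% to 90.9% of the assembled total in SCNT libraries, these means were 0.0412%, 0.212%, 0.333%, 0.390%, 0.540%, 1.39% and 2.18%, against 2.10% in CCs. In the blastocyst a few genes carried most of the summed level. Krt18 and Krt8 had means of 5652 and 4028 TPM in the TE, while the median gene stood at 4.95% of its own CC mean there. No gene reached its CC mean at E2C, and 1 gene did so at L2C (Fkbp11), 5 at 4C, 11 at 8C, 19 at the morula stage, 28 in the ICM and 30 in the TE. A mean of 10 TPM or more was found for 4 genes at E2C, 33 at L2C, 43 at 4C, 42 at 8C, 55 at the morula stage and 62 in each of the ICM and TE. No share over other genes stands beside the counts at the CC mean or at 10 TPM, which describe the set alone.

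**Figure D3:**
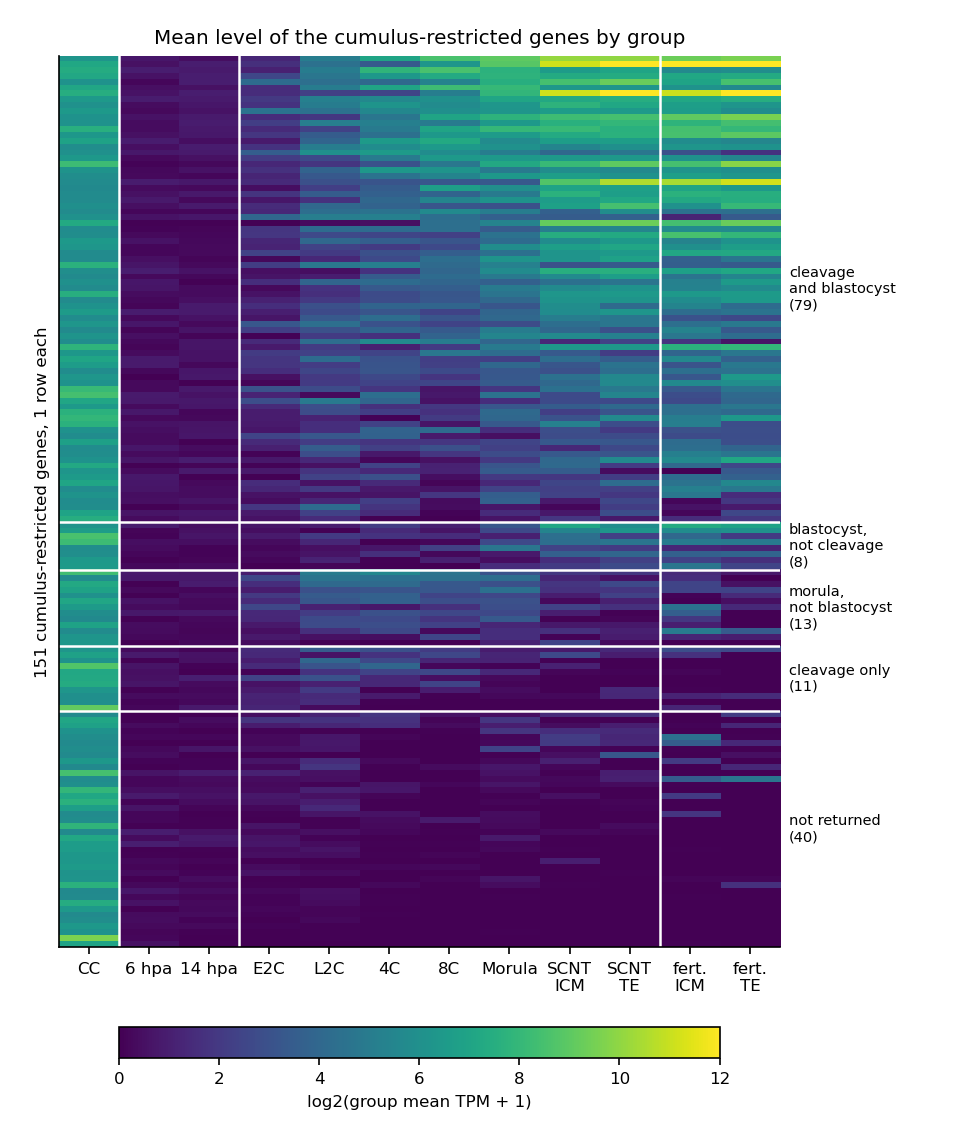
Mean level of each of the 151 genes (rows) in each group (columns), as log2(mean TPM + 1) from dark to bright, with rows grouped by where the gene returned after nuclear transfer. The top block of 79 genes, returned at a cleavage stage and in the blastocyst, brightens from L2C on, and the bottom block of 40 genes that did not return stays dark after the CC column.

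The 111 returned genes fell into 4 patterns. The largest, of 79 genes, returned at 1 or more stages from E2C to 8C and again in the SCNT ICM or TE. A further 8 genes returned only from the morula or blastocyst on. Another 13 returned by the morula stage but not in the blastocyst, and 11 returned only at cleavage stages. Fertilized control blastocysts are given for each pattern beside all of the 14168 genes with the same pattern. Of the 79 genes 76 were also returned in the fertilized ICM or TE (96.2%, against 94.6%) and of the 8 genes all 8 (against 87.2%). Of the 13 genes 3 were (Rcn3, Tst and Zkscan3, 23.1% against 51.8%), of the 11 genes 2 (Fosl2 and Itgav, 18.2% against 20.5%) and of the 40 genes not returned 4 (Prkcdbp, Rcn1, Slc7a8 and St3gal4, 10% against 5.15%). Among genes with a CC mean from 1 to under 50 TPM, the shares in the same order were 96.4%, 90.4%, 66.7%, 37.5% and 17.3%. For the 40 genes not returned, 10% was thus above the share of all such genes and below that of this closer group. The shares were not tested.

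Of the set's 5 cumulus cell markers Inha, Ptx3 and Vcan did not return, while Star and Fst did. The 10 markers outside the set summed to 4334 to 4542 TPM in CCs, to a median of 9.07 TPM at 14 hpa, 445 TPM at 8C and 771 TPM in the SCNT ICM and to 1028 and 1160 TPM in the fertilized control ICM, from 8C on mostly from Gja1, a gap junction gene, and the part of this in the members' levels was not tested. Inha was at 1020, 921 and 458 TPM in CCs and at most 0.226 TPM in any of the 41 SCNT libraries from E2C on. All 4 of the set's genes for expansion of the cumulus matrix failed to return, namely Ptx3, which links the hyaluronan chains, Vcan, a proteoglycan of the matrix, Ptgs2, the inducible prostaglandin synthase, and Btc, a ligand of the EGF receptor. Ptx3 was at 102, 106 and 69.4 TPM in CCs and reached 1 TPM in 1 later SCNT library (1.12 TPM at 8C). Ptgs2 was at 255, 224 and 250 TPM in CCs, and its highest later value was 5.00 TPM at L2C. The same held for Lox, which cross-links collagen (233 TPM in CCs), Igf1, a growth factor (52.2 TPM), Akr1b7, an aldo-keto reductase of steroid-making tissue (203 TPM), Gpx8, a peroxidase of the endoplasmic reticulum (145 TPM), and H2-T23, a class I antigen presentation gene (61.9 TPM), whose stage means stayed under 1 TPM.

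Of the 40 genes that did not return, 7 were under 1 TPM in all 41 later SCNT libraries, 26 passed 1 TPM in 1 to 5 of them and 7 in 6 or more. Some single values were high. Ly6d reached 49.1 TPM in TE replicate 6, Smim3 26.0 TPM and Nap1l5 15.1 TPM in morula replicate 3, St3gal4 18.1 TPM in ICM replicate 6 and Rcn1 17.8 TPM in ICM replicate 4. Morula replicate 3 was high for many cumulus-restricted genes. It held 112 of them at 1 TPM or more, against 83 to 97 in the other morula libraries. Their median level was 7.39 TPM there, against 2.37 to 4.16 TPM. It also had the most genes of any kind at 1 TPM or more (10509, against 9165 to 10017). Leaving out single libraries gave 88 to 91 genes returned at the morula stage. It gave 27 to 34 changed genes from morula to ICM and 28 to 32 from morula to TE. With 1 morula library left out, fewer libraries have to reach 1 TPM for a return. The range of returned genes therefore also reflects a looser rule.

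Star and Fst, a pair of cumulus identity genes, did return. Star, which moves cholesterol into mitochondria for steroid synthesis, was at 189, 192 and 145 TPM in CCs. Its lowest, median and highest values were 0.756, 1.58 and 3.55 TPM at L2C and 0.0892, 2.72 and 5.13 TPM in the ICM, and its 5 values at 4C were at or under 0.12 TPM. The L2C and 4C libraries did not overlap. Fst, the activin antagonist follistatin, was at 146, 162 and 143 TPM in CCs and peaked at L2C with 0, 4.90 and 18.9 TPM, and it was at 0 in all 6 TE libraries and in all 4 fertilized control libraries. Among the other steroid and lipid genes Fdxr, which passes electrons to the steroid-making cytochromes, had a mean of 3.86 TPM in the ICM and 3.91 TPM in the TE, and Cyp51, a cytochrome of cholesterol synthesis, 8.37 and 22.7 TPM. Fertilized control blastocysts held these genes too. Their ICM and TE means were 1.84 and 2.77 TPM for Star, 36.4 and 26.5 TPM for Fdxr and 7.49 and 26.7 TPM for Cyp51. All 3 immediate early genes of the set returned, at low levels for Fosl2 (highest stage mean 1.74 TPM at L2C), with means of 26.2 TPM at 8C for Myc and 175 TPM in the ICM and 156 TPM in the TE for Ier2.

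From E2C to L2C, the interval of embryonic genome activation, 41 of 151 genes rose and none fell. Over all 23541 genes tested, 11.2% rose and 5.31% fell. The 151 genes were chosen as low at the 1-cell stage, and 32 of them had returned at E2C, so most had little room to fall. All genes tested include genes that were high at the 1-cell stage, so the 2 sets differ in this respect. Levels were compared with limma on log2(TPM + 1), with Benjamini-Hochberg adjustment over all genes tested, and the threshold for a call was an adjusted p under 0.05 together with a difference of 2-fold or more. The median log2 difference was 0.67 for the 151 genes and 0.05 for all genes tested. The libraries of the groups did not overlap for 20 of the 151 genes, against 10.1% of all genes. On TPM rescaled to the reference genes the median of all genes was 0.15 and that of the 151 genes 1.02. With replicates 1 to 3 alone 18 genes rose and 3 fell, and with replicates 4 to 6 alone 55 rose. Unless a share is stated, counts under alternative settings or at an unadjusted p, here and below, have no share over all genes beside them. Such counts do not show an excess in the set.

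Ifi27, an interferon-induced gene, showed the largest of these rises. It was at 0.174, 0.526 and 3.80 TPM at E2C (lowest, median and highest of 6 libraries) and at 20.3, 23.8 and 56.4 TPM at L2C, with every L2C library above every E2C library. The log2 difference was 4.10 ± 0.53 (SE, limma, adjusted p = 1.98e-07). Nt5c, a cytosolic nucleotidase, went from 0.735, 1.09 and 1.89 TPM to 15.7, 24.6 and 73.7 TPM (3.75 ± 0.24, adjusted p = 4.55e-14). Ctsz, a lysosomal cathepsin and the set's only gene of the lysosomal list, went from 0.443, 0.827 and 4.61 TPM to 16.6, 30.5 and 57.0 TPM (3.64 ± 0.56, adjusted p = 4.43e-06). The groups did not overlap for either gene. Sike1, an inhibitor of a kinase of the antiviral response, rose by 3.64 ± 0.43 and Mpv17, a mitochondrial membrane protein, by 3.24 ± 0.28 on the log2 scale (adjusted p = 3.5e-08 and 4.7e-11), again without overlap. None of these genes is on the cumulus lists.

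The genes with the highest means among those returned at E2C were Ppcs, an enzyme of coenzyme A synthesis (22.6 TPM), Bmyc, a relative of Myc (17.1 TPM), and Ppp2cb, a catalytic subunit of protein phosphatase 2A (15.1 TPM). Ppcs ranged from 0.0724 to 52.3 TPM and Ppp2cb from 0.690 to 30.9 TPM over the 6 E2C libraries, while Bmyc was at 2.24 TPM or more in each. At L2C the highest were Fkbp11, a prolyl isomerase of the endoplasmic reticulum (65.7 TPM, from 20.04 to 174), Mpv17 (36.8 TPM) and Ppp2cb (33.8 TPM).

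From L2C to 4C, 17 genes rose and 9 fell, against 5.37% and 13.3% of all genes tested. The median log2 difference was -0.05 for the 151 genes and -0.08 for all genes, and -0.15 and -0.18 on rescaled TPM. The stages did not overlap for 14 of the 151 genes, against 12% of all genes. Under quantile normalization 26 rose and 1 fell, and the median of all genes was 0.0008 and that of the 151 genes 0.23. Nt5c continued upward, to 204, 222, 222, 242 and 276 TPM in the 5 4C libraries (3.01 ± 0.25, adjusted p = 8.51e-12). Renbp, which epimerizes N-acetylglucosamine and binds renin, went from 1.89, 34.8 and 59.6 TPM at L2C to 75.7, 93.7, 76.0, 184 and 203 TPM at 4C (2.18 ± 0.46, adjusted p = 0.000396). Ctsz went from 16.6, 30.5 and 57.0 TPM to 137, 121, 74.5, 215 and 120 TPM (2.07 ± 0.58, adjusted p = 0.00713). The groups did not overlap for these 3 genes. The other rises without overlap named by the rule were of Ndufaf1, an assembly factor of respiratory complex I (3.61 ± 0.78), Tmem223, a mitochondrial membrane protein (3.22 ± 0.47), and 9430016H08Rik (2.22 ± 0.39).

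The 4 falls without overlap at 4C were of genes at low L2C levels. Cpt1a, which admits fatty acids to mitochondria, was at 3.69, 5.49 and 10.1 TPM at L2C, and at 2.55, 0.0435, 0.667, 0.152 and 0.241 TPM in the 5 4C libraries (-2.12 ± 0.55 on the log2 scale, adjusted p = 0.00326). Trf, transferrin, went from a mean of 3.12 to 0.0071 TPM (-1.84 ± 0.47, adjusted p = 0.00293), Pcdh7, a protocadherin, from 1.90 to 0.0331 TPM (-1.38 ± 0.26, adjusted p = 6.37e-05), and Star from 1.77 to 0.0297 TPM (-1.36 ± 0.34, adjusted p = 0.00225). Pcdh7 did not return at any later SCNT stage, while Cpt1a was at 9.09 TPM in the ICM and 35.0 TPM in the fertilized ICM (group means).

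From 4C to 8C 16 genes rose and 5 fell, against 4.01% and 3.05% of all genes, and 9 rose and 6 fell on rescaled TPM. The stages did not overlap for 13 genes, against 5.31% of all genes. Fbxo6, an F-box protein that recognizes glycoproteins, was at 0, 3.01, 1.11, 26.2 and 20.6 TPM at 4C and at 26.2, 91.1 and 254 TPM at 8C (3.97 ± 0.66, adjusted p = 9.96e-05). Krt18 went from 0.106, 16.7, 23.5, 3.95 and 2.92 TPM at 4C to 27.9, 59.9 and 208 TPM at 8C (3.32 ± 0.67, adjusted p = 0.00113), and Lpcat3, a phospholipid acyltransferase, from 0.775, 26.2, 28.4, 44.9 and 42.4 TPM to 61.9, 126 and 164 TPM (2.64 ± 0.49, adjusted p = 0.00046). The 8C libraries were above every 4C library for each of these genes. Rises without overlap were also measured for 2200002D01Rik (1.75 ± 0.42), Renbp (1.64 ± 0.46) and 9430016H08Rik (1.61 ± 0.39), whose calls were lost in 3, 8 and 3 of 20 alternative settings. Ikbip, a protein of the endoplasmic reticulum, went from 8.48, 13.6 and 15.1 TPM at 4C (lowest, median and highest) to 0.0273, 0.575 and 2.51 TPM at 8C (-3.00 ± 0.66, adjusted p = 0.00252). The highest genes at 4C and 8C were Nt5c (233 and 379 TPM), Ctsz (134 and 307 TPM) and Renbp (126 and 372 TPM), all above their CC means of 168, 136 and 75.9 TPM at 8C.

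From 8C to the morula stage 15 genes rose and 2 fell, against 2.84% and 1.11% of all genes, with a median log2 difference of 0.33 for the 151 genes and 0 for all genes. For 18 genes the stages did not overlap, against 5.24% of all genes. Under quantile normalization 13 rose and 4 fell, with replicates 1 to 3 alone 3 rose and 2 fell, and with replicates 4 to 6 alone 24 rose and 5 fell. Pmvk, an enzyme of the mevalonate pathway of cholesterol synthesis, went from 0.389, 5.48 and 9.47 TPM at 8C to 35.7, 54.7 and 81.4 TPM in morulae (3.44 ± 0.43, adjusted p = 1.81e-06). Xbp1, a transcription factor of the unfolded protein response, went from 0.565, 2.18 and 8.51 TPM to 19.2, 25.7 and 52.3 TPM (3.05 ± 0.62, adjusted p = 0.0018). Cd81 went from 0.0809, 0.527 and 2.28 TPM to 5.25, 19.5 and 46.4 TPM (3.42 ± 0.72, adjusted p = 0.00265). The stages did not overlap for any of these 3 genes. Scd2, a fatty acid desaturase (2.70 ± 0.56), Plod2, a lysyl hydroxylase of collagen (2.55 ± 0.56), and Pros1, the anticoagulant protein S (2.14 ± 0.52), rose without overlap too, and Pla2g4a, the cytosolic phospholipase that frees arachidonic acid, fell from 1.26, 3.82 and 9.59 TPM to at most 0.715 TPM (-2.16 ± 0.36, adjusted p = 0.000126). The highest genes in morulae were Renbp (523 TPM), Krt18 (472 TPM) and Ctsz (263 TPM).

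The keratins Krt8 and Krt18, which pair in the filaments of simple epithelia and are used as TE genes, reached the highest levels of the set. They lie on mouse chromosome 15 at 101996711 to 102004342 (minus strand) and 102028216 to 102032026 (plus strand) in mm10. Krt8 was at 144, 275 and 109 TPM in CCs. Its lowest, median and highest values were 6.83, 32.7 and 59.6 TPM at 8C, 55.3, 231 and 457 TPM in morulae, 1061, 1958 and 4320 TPM in the ICM and 1455, 3845 and 6849 TPM in the TE. Krt18 was at 116, 198 and 113 TPM in CCs, at 62.0, 522 and 908 TPM in morulae, at 679, 2258 and 3692 TPM in the ICM and at 3309, 5458 and 8221 TPM in the TE. Both genes in the TE were above the CC level in every library. Krt18 was already at 5.76 to 34.2 TPM in all 6 L2C libraries, when Krt8 ranged from 0 to 17.8 TPM.

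Promoter sequence is shown for both keratins because they reached the highest levels of the set. It is also shown for Tagln2, an actin-binding gene that had been at 6.04, 18.7 and 64.8 TPM at 8C and was at 56.5, 178 and 246 TPM in morulae (2.78 ± 0.64, adjusted p = 0.00634, with overlap), and for Akr1b7, which did not return. Each stretch is the 250 bases before the RefSeq start on the strand of the gene in GRCm38.p6, and its end meets the gene start in the tables. Capitals mark matches, on either strand, to CACGTG (E-box), TGANTCA (AP-1), GGAATG (TEAD), GCCNNNGGC (AP-2), AAGGTCA (NR5A) or TATAAA (the core promoter box). Among the same 250 bases of all 32851 RefSeq promoters 6.02%, 6.75%, 12.6%, 13.7%, 4.08% and 12.4% hold each of these motifs. Krt18 held 1 AP-2 match starting at base -83, Tagln2 held 2 TEAD matches at -118 and -80, Akr1b7 held 1 NR5A match at -248, and Krt8 held none. No matches overlapped. A match is a description of letters, and its use by a factor was not tested. An entry was found for 114 of 151 genes (75.5%), so no share over the set is given.
Krt8 (chr15:102004343-102004592, minus strand): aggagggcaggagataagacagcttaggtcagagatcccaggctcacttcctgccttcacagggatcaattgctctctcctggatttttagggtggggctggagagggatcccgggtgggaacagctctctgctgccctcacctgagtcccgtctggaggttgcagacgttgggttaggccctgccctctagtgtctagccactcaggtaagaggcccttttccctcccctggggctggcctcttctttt
Krt18 (chr15:102027966-102028215, plus strand): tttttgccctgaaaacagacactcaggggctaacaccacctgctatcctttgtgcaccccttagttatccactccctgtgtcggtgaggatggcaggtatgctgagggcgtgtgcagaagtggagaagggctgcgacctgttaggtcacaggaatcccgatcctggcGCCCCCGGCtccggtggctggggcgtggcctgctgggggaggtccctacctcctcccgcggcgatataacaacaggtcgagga
Tagln2 (chr1:172499996-172500245, plus strand): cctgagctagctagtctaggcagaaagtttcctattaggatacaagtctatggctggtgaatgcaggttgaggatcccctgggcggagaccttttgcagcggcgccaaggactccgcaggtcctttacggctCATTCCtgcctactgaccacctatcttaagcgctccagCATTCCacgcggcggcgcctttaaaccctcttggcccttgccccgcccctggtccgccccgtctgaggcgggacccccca
Akr1b7 (chr6:34412112-34412361, plus strand): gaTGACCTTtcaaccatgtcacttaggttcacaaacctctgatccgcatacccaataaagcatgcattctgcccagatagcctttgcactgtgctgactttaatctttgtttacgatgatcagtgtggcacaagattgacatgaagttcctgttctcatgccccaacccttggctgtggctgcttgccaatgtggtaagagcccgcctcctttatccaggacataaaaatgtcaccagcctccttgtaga

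From morula to the ICM 15 genes rose and 15 fell, against 3.5% and 5.9% of all genes, and from morula to the TE 23 rose and 9 fell, against 4.45% and 4.47%. There was no overlap with morulae for 15 genes in the ICM and 25 in the TE, against 5.6% and 7.37% of all genes. Both comparisons share the morula libraries. The values of the leading genes stand side by side. Capg, which caps actin filaments, was at 9.77, 37.8 and 73.1 TPM in morulae, at 413, 572 and 764 TPM in the ICM and at 411, 589 and 937 TPM in the TE, without overlap with morulae in either (4.05 ± 0.45 and 4.15 ± 0.45 on the log2 scale, adjusted p = 5.81e-08 and 2.77e-08). Krt8 rose by 3.38 ± 0.66 in the ICM and by 4.18 ± 0.66 in the TE (adjusted p = 0.000423 and 2.23e-05), and Krt18 by 2.45 ± 0.64 and 3.93 ± 0.64 (adjusted p = 0.00814 and 3.47e-05), with overlap of the ICM and morula libraries for Krt18. Adh1, an alcohol dehydrogenase, was at 2.14, 11.4 and 14.0 TPM in morulae, at 12.9, 357 and 1198 TPM in the ICM and at 874, 1449 and 2259 TPM in the TE. Its TE rise of 7.37 ± 0.87 (adjusted p = 1.25e-07) was the largest of the set, and 1 ICM library lay within the morula range.

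The other rises without overlap named by the rule were, in the TE, Fam213b, a prostaglandin F synthase (5.78 ± 0.96), and Pgm2, a phosphoglucomutase (3.91 ± 0.66), and, in the ICM, Pros1 (3.65 ± 0.52), Gng10, a G protein subunit (1.96 ± 0.52), Hibch, an enzyme of valine breakdown (1.88 ± 0.61), and Nagk, an N-acetylglucosamine kinase (1.84 ± 0.40). Pros1 was at 2.68, 7.99 and 14.2 TPM in morulae, at 49.0, 89.4 and 404 TPM in the ICM and at 43.0, 57.2 and 72.0 TPM in the TE. Gng10, Hibch and Nagk also passed the threshold in the TE. Hibch in the ICM lost its call in 14 of 21 alternative settings.

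Falls after the morula stage included genes of several functions. Rab34, a small GTPase of the Golgi and the cilium, was at 3.52, 18.2 and 38.0 TPM in morulae, at 0, 0.554 and 3.44 TPM in the ICM and at 0, 0.165 and 2.16 TPM in the TE (-2.88 ± 0.52 and -3.41 ± 0.52, adjusted p = 0.000136 and 1.06e-05). F3, tissue factor, was at 1.01, 4.13 and 37.3 TPM in morulae and at most 0.268 TPM in the ICM and 0.240 TPM in the TE (-2.46 ± 0.63 and -2.40 ± 0.63, adjusted p = 0.00692 and 0.00867). Neither gene overlapped between morulae and the blastocyst. Psmb10, a subunit of the immunoproteasome, fell by 2.75 ± 0.41 in the ICM, Zfp52, a zinc finger gene, by 2.49 ± 0.51 and Scd2 by 2.28 ± 0.56, and Gpc4, a glypican, fell by 2.40 ± 0.55 in the TE, all without overlap. The values of Col4a1, a chain of basement membrane collagen, were 5.38, 10.3 and 17.8 TPM in morulae, 0.0621, 4.49 and 7.47 TPM in the ICM and 0.790, 2.51 and 6.74 TPM in the TE, and both changes passed the threshold (-1.41 ± 0.40 and -1.72 ± 0.40, adjusted p = 0.0173 and 0.00323).

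**Figure D4:**
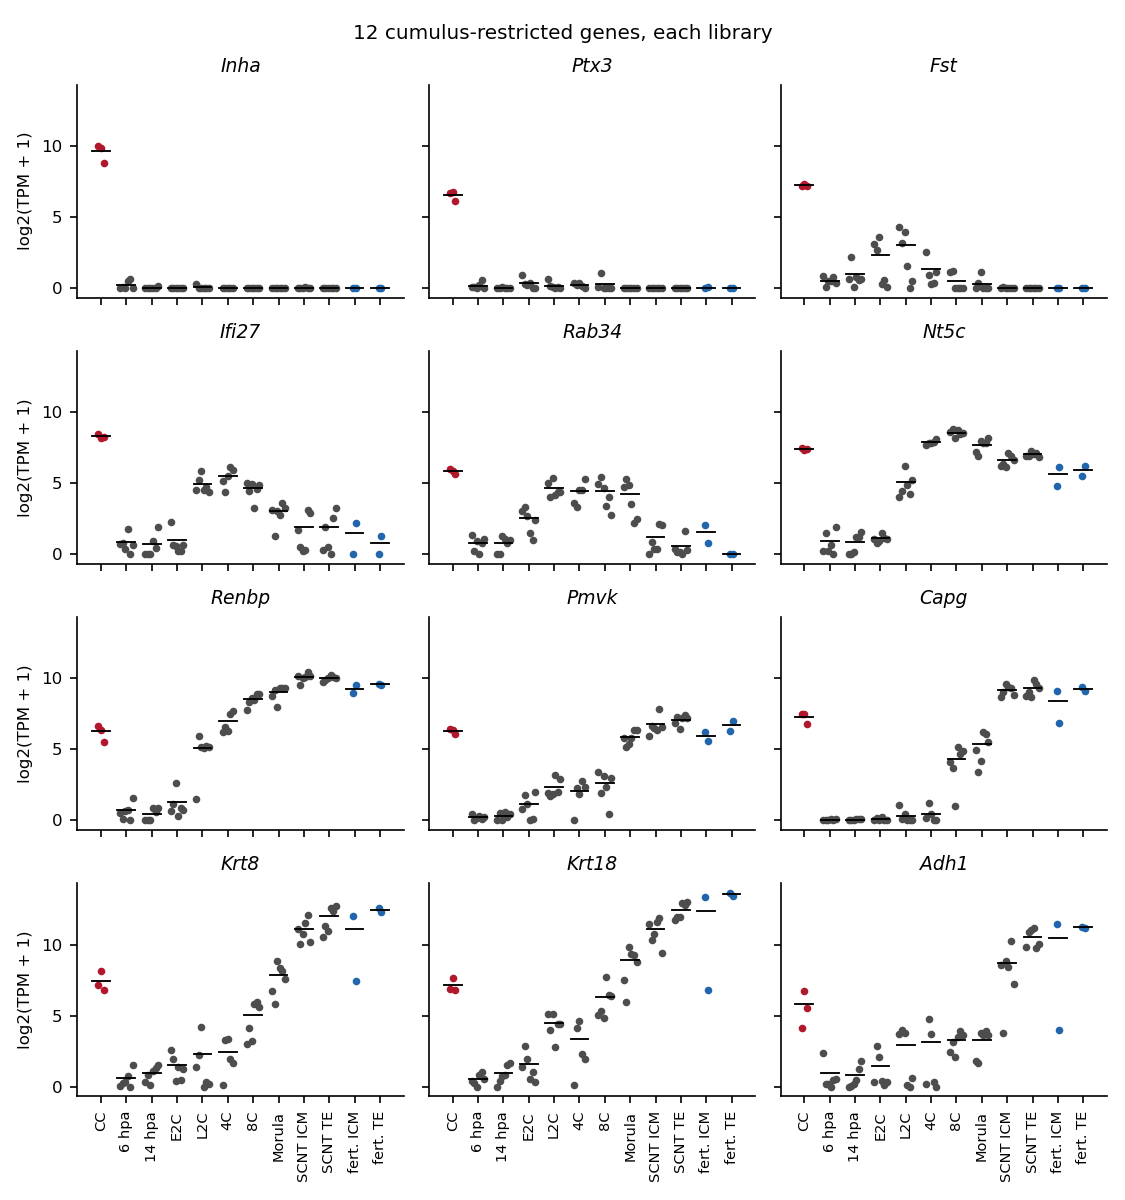
Level of 12 of the genes in each library, as log2(TPM + 1) on the vertical axis by group, with points for single libraries (CCs red, SCNT dark, fertilized controls blue) and a line at log2(mean TPM + 1). Inha and Ptx3 stay near 0 after CCs, Ifi27 and Rab34 rise at L2C and are low again in the blastocyst, and Krt8, Krt18, Capg and Adh1 reach their highest SCNT levels in the ICM and TE, where the 2 fertilized ICM libraries lie far apart for Krt8, Krt18 and Adh1.

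Genes that came back and left again included the interferon-induced Ifi27. It had 30.4 TPM at L2C, 45.5 at 4C, 23.8 at 8C, 7.08 in morulae, 2.87 in the ICM and 2.81 in the TE (group means, against 317 TPM in CCs), and in the fertilized controls it was at 0 and 3.54 TPM in the ICM and at 0 and 1.51 TPM in the TE. Cd52, a short glycoprotein known from leukocytes, had 5.63 TPM at L2C, 6.37 at 4C, 4.07 at 8C, 1.41 in morulae and 0.704 in the ICM, against 118 TPM in CCs. Emp3, a membrane protein at 428 TPM in CCs, was at 3.05, 7.19 and 13.5 TPM at L2C, at a mean of 14.8 TPM at 4C and at no more than 0.616 TPM in any 8C library (4C to 8C -2.64 ± 0.66, adjusted p = 0.00769), with a mean of 1.18 TPM in the ICM, where 1 library was at 6.94 TPM, and all 6 TE and all 4 fertilized control libraries were at 0. Sfrp4 returned at E2C alone, at 0, 1.30 and 3.53 TPM. Clu, the secreted chaperone clusterin, had means of 16.2, 17.0, 8.83 and 6.66 TPM from L2C to the morula stage, 2.56 TPM in the ICM and 5.34 TPM in the TE, against 148 TPM in CCs. Its medians were 0.180 TPM in the ICM and 0.192 TPM in the TE, with 1 and 2 of 6 libraries at 1 TPM or more.

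Within SCNT blastocysts 1 gene was higher in the ICM than in the TE and 6 were lower, against 0.319% and 0.862% of all genes tested. None of the 151 genes separated the ICM libraries from those of the TE, as 0.573% of all genes did, so the rule for naming did not reach them and they are named after their values were seen. Plod2 was at 10.0, 29.7 and 87.4 TPM in the ICM and at 1.26, 5.71 and 12.4 TPM in the TE (2.39 ± 0.56, adjusted p = 0.0215). Cd81 was at 0, 0.482 and 24.5 TPM in the ICM and at 12.03, 42.3 and 70.6 TPM in the TE (-3.77 ± 0.72, adjusted p = 0.00299). Fam213b (-3.65 ± 0.96), Cyba, a subunit of the NADPH oxidase (-3.04 ± 0.68), Serpinb6b, a protease inhibitor (-2.62 ± 0.66), Cited4, a transcription cofactor (-2.53 ± 0.65), and Wsb2 (-2.12 ± 0.51) were the others. The calls were not stable. On rescaled TPM 0 were higher and 4 lower, under quantile normalization 1 and 2, with only these 12 libraries in the fit there were 0 calls, with 22 genes at an unadjusted p under 0.05, and leaving out single libraries gave 2 to 9 calls. Leaving out ICM replicate 2 gave 2 calls, ICM replicate 3 or TE replicate 6 gave 3, and TE replicate 4 or 5 gave 4. The TE genes outside the set, 32 of the list for trophectoderm and its epithelium, summed to 3682 to 10848 TPM in the SCNT ICM and to 10019 to 20164 TPM in the TE. The part of TE cells left with the ICM, and that of the lower gene detection in ICM replicates 1 to 3, was not tested.

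Fertilized control blastocysts held 93 of the 151 genes at the return level. It was 79 genes in the ICM (52.3%, against 13.8% of the 14168 genes), 90 in the TE (59.6%, 17.4%) and 93 in either (61.6%, 19.7%), against 87 in the SCNT ICM or TE (57.6%, 13.1%). In the ICM 64 genes were at that level in both kinds of embryo, 8 in SCNT only and 15 in fertilized only, and in the TE 80, 3 and 10. At 1 TPM or more, SCNT ICM libraries held 54 to 66 of the genes in replicates 1 to 3. Replicates 4 to 6 held 87 to 95, against 94 and 88 in the fertilized ICM libraries. With replicates 4 to 6 alone, the SCNT ICM count given above was higher than the fertilized one, so the ICM direction depends on the replicates. Over 2 fertilized libraries the return rule also asks for both, a larger share than over 6. The summed level in the fertilized TE was 27290 and 29890 TPM, against 11436 to 14162 TPM in replicates 1 to 3 and 22330 to 26419 TPM in replicates 4 to 6 of the SCNT TE. In the fertilized ICM it was 25039 TPM in replicate 1 and 6089 TPM in replicate 2. The TE list without the set's genes summed to 13224 and 2879 TPM in these 2 libraries and to 18649 and 18944 TPM in the fertilized TE, so replicate 1 of the fertilized ICM stood nearer to the TE. Its part in the results below was not tested.

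Between SCNT and fertilized control ICM 3 of the 145 genes tested were higher and 5 lower, against 1.85% and 4.26% of all 20768 genes tested. Rescaled TPM gave 5 and 5, quantile normalization 6 and 1. Without replicate 1 of the fertilized ICM 8 were higher and 3 lower, and 3 of these 11 calls were among the 8. 2200002D01Rik, an uncharacterized gene, was at 28.2, 73.7 and 117 TPM in the SCNT ICM and at 14.4 and 9.20 TPM in the fertilized ICM (2.38 ± 0.53, limma, adjusted p = 0.0139). Tmem205, a membrane protein, was at 19.9, 33.7 and 44.9 TPM against 3.32 and 11.2 TPM (2.14 ± 0.50, adjusted p = 0.0195), and Gng10 at 32.6, 61.9 and 69.9 TPM against 21.2 and 15.6 TPM (1.53 ± 0.39, adjusted p = 0.0303). The groups did not overlap for these genes, a pattern found for 23 of the 145 genes and 17.9% of all genes tested here.

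Lower in the SCNT ICM were Zkscan3, a zinc finger repressor of autophagy genes, at 0, 0.0422 and 9.79 TPM against 32.5 and 29.6 TPM (-4.06 ± 0.99, adjusted p = 0.023), and Hipk1, a nuclear protein kinase, at 0.0182, 1.03 and 5.02 TPM against 21.0 and 17.8 TPM (-3.33 ± 0.66, adjusted p = 0.00687). Slc7a8, an amino acid transporter, was at 0, 0.033 and 0.622 TPM against 17.7 and 3.09 TPM (-2.88 ± 0.69, adjusted p = 0.0208). Col4a1 was at 0.0621, 4.49 and 7.47 TPM against 29.02 and 22.99 TPM (-2.65 ± 0.75, adjusted p = 0.0498), and Itgav, the alpha v integrin, at 0.127, 0.417 and 2.64 TPM against 7.03 and 5.60 TPM (-2.17 ± 0.59, adjusted p = 0.0419). Again no groups overlapped. Itgav lost its call in 13 of 17 alternative settings, Col4a1 in 11, Zkscan3 in 7 and Slc7a8 in 6. With only these 2 groups in the fit there were 0 calls, with 23 genes at an unadjusted p under 0.05, and with SCNT replicates 1 to 3 alone there were 17.

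In the TE the same 3 genes were higher in SCNT and 1 was lower, against 1.64% and 1.97% of all genes tested, and quantile normalization gave 8 and 1. 2200002D01Rik was at 60.0, 113 and 173 TPM against 17.2 and 31.8 TPM (2.15 ± 0.53, adjusted p = 0.0332), Tmem205 at 13.0, 23.8 and 41.8 TPM against 2.62 and 7.55 TPM (2.13 ± 0.50, adjusted p = 0.028), and Gng10 at 42.1, 81.2 and 128 TPM against 28.9 and 16.2 TPM (1.74 ± 0.39, adjusted p = 0.0215). These calls were lost in 8, 5 and 2 of 17 alternative settings. Slc7a8 was at 0, 0.622 and 3.82 TPM in the SCNT TE and at 29.7 and 18.9 TPM in the fertilized TE (-3.82 ± 0.69, adjusted p = 0.00501, lost in 2 settings). None of these groups overlapped, which held for 34 of the 145 genes and 23.8% of all genes tested. Krt8, Krt18, Adh1, Capg, Renbp and Tagln2 did not pass the threshold in either lineage. In the TE every SCNT library was nevertheless below the fertilized libraries for Krt18 (means of 5652 and 12008 TPM), Adh1 and Tagln2. Every SCNT TE library was above them for Renbp, and Krt8 and Capg overlapped. Whether the ICM to TE difference itself differed between SCNT and fertilized blastocysts was tested as an interaction in limma. It gave 0 calls among 145 genes, against 0.506% of all genes, with 10 genes at an unadjusted p under 0.05, a count without a share over all genes. The largest estimate was for Slc40a1, the iron exporter (5.22 ± 1.54, adjusted p = 0.254). Without replicate 1 of the fertilized ICM there were 6 calls, without replicate 2 there were 3, and without ICM replicate 4 of SCNT or either fertilized TE library there was 1.

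**Figure D5:**
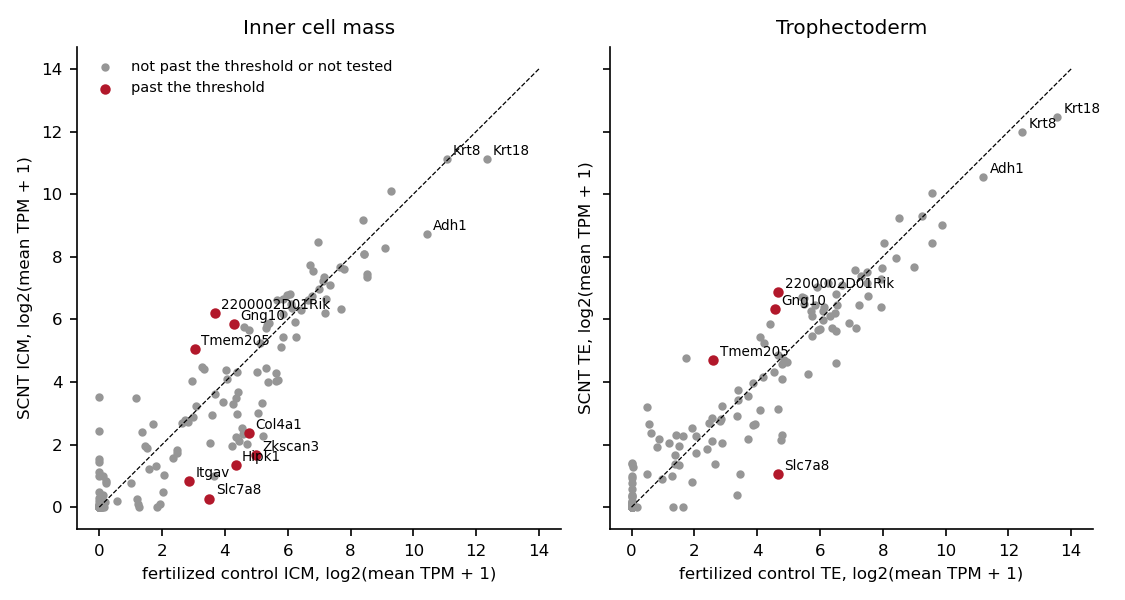
Level of each of the 151 genes in SCNT (vertical axis) against fertilized control blastocysts (horizontal axis), as log2(mean TPM + 1), in the ICM (left) and the TE (right), with a dashed line of equality. Red points passed the threshold, 8 genes in the ICM and 4 in the TE, and Krt8, Krt18 and Adh1 lie at the top right of both panels.

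Between the ICM and TE of fertilized controls 2 of 142 genes tested were higher in the ICM and none lower, against 0.453% and 0.321% of the 19642 genes tested. An unadjusted p under 0.05 was found for 25 genes, a count without a share over all genes. Rcn1, a calcium-binding protein of the endoplasmic reticulum, was at 27.1 and 14.5 TPM in the ICM and at 0 and 0.0843 TPM in the TE (4.33 ± 0.60, adjusted p = 0.0339). Col4a1 was at 29.02 and 22.99 TPM in the ICM and at 1.26 and 2.43 TPM in the TE (3.27 ± 0.43, adjusted p = 0.0281). The 2 against 2 libraries did not overlap for 59 of the 142 genes, against 30.7% of all genes. Without replicate 1 of the fertilized ICM, the library with the high TE list, 8 genes were higher and 20 lower in the ICM, without replicate 2 there were 7 calls, and without replicate 1 of the TE there were 5. With the libraries of all 3 morpholino treatments together, 6 of ICM against 6 of TE, a comparison chosen after seeing the data, Rcn1 (4.44 ± 0.36), Col4a1 (3.04 ± 0.33) and Rab34 (1.91 ± 0.37) were higher in the ICM and Tagln2 lower (-1.11 ± 0.21), against 0.886% and 0.239% of all genes. In SCNT blastocysts Rcn1 was at 0, 0.0147 and 17.8 TPM in the ICM and at 0, 0.0956 and 4.63 TPM in the TE, Col4a1 at the values given above, and neither passed the threshold between the 2 lineages.

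By function, counted over lists of known genes, both TE genes of the set (Krt8 and Krt18) and both genes of the actin, intermediate filament and annexin list (Tagln2 and Cald1; Capg is not on it) were in the SCNT blastocyst, as were 3 of 4 steroid and lipid genes (Star, Fdxr and Cyp51), 2 of 3 immediate early genes (Ier2 and Myc), 1 of 3 cumulus identity genes (Star), 1 of 2 matrix genes (Col4a1) and 1 of 2 redox genes (Gstm2). None of the 4 expansion genes, none of the 4 genes of the TGF-beta, IGF and Wnt list (Inha, Fst, Igf1 and Sfrp4) and none of the 2 interferon genes (Ifi27 and H2-T23) were at the return level there. Over the whole set 87 of 151 were. Most of the set is on none of these lists. Cald1, an actin regulator, was at a mean of 6.21 TPM in the TE and 0.700 TPM in the ICM, and Gstm2, a glutathione transferase, at 24.0 and 19.0 TPM, against 125 and 296 TPM in CCs. Some values are uncertain by sequence. Rpsa has many processed copies in the genome, Scd1 and Scd2 and the class I genes H2-Q10 and H2-T23 have close relatives, and Snora31 names a small nucleolar RNA that lies within another gene and is not polyadenylated, so reads may be shared or misplaced for these genes.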

How the data were processed

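The authors trimmed Smart-seq2 reads with Cutadapt 1.16, aligned them to mm10 with HISAT2 and quantified each library with StringTie. The annotation is not given in the sources used here. The deposited TPM column was handled as a score, because reference genes are listed beside assembled loci that themselves sum to 1000000 TPM, so the column sums to more. Deposited coverage (a signal) divided by the deposited FPKM gave the aligned gigabases. FPKM and coverage were used for nothing else.

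TPM was summed per gene name. The members and gene lists were chosen with earlier results of these data known. All genes above 0 TPM in at least 1 library of a fit were tested with limma 3.58.1 (R 4.3.3) on log2(TPM + 1) with Benjamini-Hochberg adjustment. A fold change on this scale understates the change of low genes. SCNT stages shared 1 fit, as did the blastocyst groups and the fertilized groups. Scripts were tested on simulated data. Depth in reads is unknown, so no counting intervals are given.

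In each comparison the genes named were those past the threshold without overlap, up to 6 per direction. The others were the 3 highest at each stage, the 6 highest in CCs, returned list genes and the 3 genes nearest each threshold. Clu, Emp3 at later stages, Slc40a1, the genes that did not return, the SCNT ICM against TE genes and the further genes without a rank were named after their values were seen. A gene that the rule reached is not reported here. Replicate numbers paired the SCNT ICM and TE libraries by the check used, in which every same-numbered pair had a correlation of deviations over 0.1 (0.13 to 0.294, 6 pairs), and the blocked fit gave the same count of 7. The same number was the best match in only 2 of the 6 pairs, so the check does not show that a number marks shared embryos. The 5th 4C library was numbered by its label. Alternatives covered pseudocount, filter, scaling, duplicate rows, groups in the fit, replicates and the block.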

Additional observations from a re-analysis of the deposited data

Results flagged for a closer look

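In 6 of 71 groups of values tested, 1 library stood far from the others by Dixon's criterion, which chance meets in about 1 in 20 groups. At L2C the highest library had 1589 TPM summed over the 151 genes, against a median of 948.3 TPM. In the same stage Nt5c reached 73.66 TPM (median 24.61) and Ndufaf1 49.58 TPM (median 7.528). Krt18 reached 208.4 TPM at 8C (median 59.92). In the SCNT ICM Pros1 reached 403.5 TPM (median 89.42), and Nagk had a lowest value of 126.1 TPM (median 194.3).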

How the results depend on the processing

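Of the counts of returned or changed genes, 117 of those under other settings were within 1.5 times the reported count and 30 were not. Of those leaving out 1 library, 182 were and 18 were not. Leaving out 1 library also changes the share of libraries that a return needs, which enters the counts of returned genes. No named gene reversed. Single genes kept their call in 490 settings and lost it in 82, and in 645 and 42 with 1 library left out. Unless stated, the cause of a shift was not tested.

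With only the libraries of the groups compared, calls were 15 (4C against L2C), 13 (8C against 4C), 33 (morula against 8C), 0 (ICM against TE, 22 at an unadjusted p under 0.05), 0 (SCNT against fertilized ICM, 23 unadjusted), 7 (SCNT against fertilized TE) and 0 (fertilized ICM against TE, 12 unadjusted). A pseudocount of 0.1 TPM gave 3 for ICM against TE and 5 for SCNT against fertilized ICM. Rescaled TPM gave 4 for ICM against TE. Quantile normalization gave 3 there and 9 for SCNT against fertilized TE. A mean of at least 1 TPM gave 7 for fertilized ICM against TE. The comparison of 6 against 6 fertilized libraries, chosen after seeing the data, gave 4.

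Replicates 1 to 3 alone gave 21 calls for L2C against E2C, 13 for 4C against L2C, 5 for morula against 8C and 19 for TE against morula. They gave 17 and 7 for SCNT against fertilized ICM and TE. Replicates 4 to 6 alone gave 29 for morula against 8C, 49 for TE against morula and 4 for ICM against TE. At E2C 72 genes returned in replicates 1 to 3 and 19 in replicates 4 to 6, 67 by the mean alone and 1 at 5 TPM. At L2C 41 returned at 5 TPM.

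Leaving out single libraries gave 12 to 24 calls for 8C against 4C (12 without 4C replicate 1, 13 without 4C replicate 2), 2 to 9 for ICM against TE, 0 to 6 for the interaction and 3 to 28 for fertilized ICM against TE. At E2C 33 to 59 genes returned, all above the 32 with all 6 libraries. With 1 left out, fewer libraries have to reach 1 TPM, so these counts partly reflect a looser rule.

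Except in SCNT ICM against TE, the libraries shared only a number (lowest correlation -0.229), or only 2 pairs existed. With the replicate block calls were 14 for SCNT against fertilized ICM and 7 for TE, and 42, 25, 19, 18, 32 and 32 along the SCNT stages. The block moved no other count by over 1.5 times.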

Other observations

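The morpholino-injected fertilized blastocysts also held most of the cumulus-restricted genes. After injection against Max 93 of the 151 genes were at the return level in the ICM (61.6%, against 16% of the 14168 genes) and 90 in the TE (59.6%, 15.4%). After injection against Mcrs1 it was 98 in the ICM (64.9%, 16.6%) and 95 in the TE (62.9%, 15.5%). Summed TPM of the 151 genes was 10652 and 14762 in the ICM after injection against Max and 15754 and 20103 after injection against Mcrs1, all between the values of the 2 control ICM libraries.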
